A study of Mus musculus with 6 samples.

Results

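The C-type lectin, Fc and Siglec receptor genes described here, with the Cd300, Lilr, Pilr and Sirp receptors, were taken by name. They are the genes of the deposited expression table whose symbol begins with Clec and a digit, or with Fcgr, Fcer, Siglec, Cd300, Lilr, Pilr, Sirpa or Sirpb. The rule took 70 of the 22322 genes, and 53 of them reached an FPKM of 0.5 or more in at least 1 library and are described. FPKM, fragments counted per transcript length and library size, is a level that can be compared between genes. The members just above that minimum were Cd300ld2, Siglech and Siglecf, with highest FPKM of 0.53, 0.54 and 0.55, and those just below it were Cd300lf, Clec12b and Cd300e, with 0.45, 0.35 and 0.29. In all, 17 members stayed under 0.5 in every library, 5 of them Clec2 genes and 3 Cd300 genes. RNA came from epididymal white adipose tissue of mice fed a high fat diet for 17 weeks. One group was wild type (3 libraries) and the other CD44 KO, lacking the hyaluronan receptor CD44 (3 libraries). Both groups had the diet, and no lean group is analysed here. The labels give neither strain nor age, nor whether the deletion reached all cells, and nothing in them says that each library is a separate animal, so p-values measure the spread between these libraries.

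Most of these genes encode surface receptors of macrophages, dendritic cells, granulocytes and mast cells. C-type lectin receptors bind sugars and other ligands on microbes and dying cells, Fc receptors bind antibodies, and Siglecs bind sialic acid. Many work as pairs: activating receptors signal through the adaptor chains encoded by Fcer1g and Tyrobp and the kinase Syk, and inhibitory receptors carry tyrosine motifs that recruit the phosphatases SHP-1 and SHIP-1. In obese fat, macrophages are a main source of such transcripts. A few members have other homes by common knowledge: Cd300lg, Clec14a and Clec1a are expressed by endothelium, Clec3b and Clec11a encode secreted proteins of stroma, Clec2d encodes a ligand of NK cell receptors, and Clec16a encodes an intracellular protein.

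Library totals ran from 15543317 to 18765009 expected counts. Cd44 itself had 28, 50 and 34 counts in the knockout libraries (replicates 1, 2 and 3, the order used throughout) against 3091, 10580 and 6000 in the wild type ones. The libraries differed within each genotype. All 15 pan-macrophage markers were detected, and their summed level was 5349 to 12474 CPM (counts scaled to library size) in wild type. It was 5617 CPM in CD44 KO replicate 1 but 318 and 1041 CPM in replicates 2 and 3. The epididymal marker genes summed to 11043 CPM in CD44 KO replicate 2. In CD44 KO replicates 1 and 3 they summed to 12.7 and 6.67 CPM, and in wild type to 0.754 to 1.36 CPM. Their part, and that of the macrophage markers, in the differences below was not tested. In bulk tissue, fewer cells of a type and less RNA per cell cannot be told apart.

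Promoters are shown because the macrophage transcription factor PU.1, encoded by Spi1, is known to bind purine-rich sites that hold GAGGAA. Of the 53 members, 43 had an entry in the RefSeq promoter table (GRCm38.p6). In the 250 bases before the start, GAGGAA or its reverse complement TTCCTC was found in 26 of 43 members (60.5%), against 25.9% of 27025 genes in the table. The mean GC content was 45.3% in the members' promoters and 53.2% in all promoters, and the part of base composition in this share was not tested. By family, 6 of 7 Cd300 genes and 5 of 6 genes of the Dectin-2 cluster had a match, and none of the 3 Sirp and the 3 Clec2 genes had one. Neighbouring genes of a family can share their promoter letters, and the last 150 bases of Cd300ld4 and Cd300ld5 were identical. The genes are thus not independent counts, in a family or in the share of all members. Of the lectins of endothelium, platelets, stroma and other cells, 3 of 4 had one. The 150 bases before the start are printed 5′ to 3′ for 6 members with a match and for Clec2d, which had none, with the matches in capitals. A match is a description of the letters only.
Clec7a (chr6:129472780-129472929, minus strand): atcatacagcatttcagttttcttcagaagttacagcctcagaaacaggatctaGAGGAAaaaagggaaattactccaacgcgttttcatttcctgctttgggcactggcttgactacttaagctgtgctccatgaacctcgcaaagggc
Clec4b1 (chr6:123049812-123049961, plus strand): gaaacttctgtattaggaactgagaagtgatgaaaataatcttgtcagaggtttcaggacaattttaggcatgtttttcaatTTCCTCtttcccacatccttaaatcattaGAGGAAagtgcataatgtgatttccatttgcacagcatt
Fcgr1 (chr3:96293970-96294119, minus strand): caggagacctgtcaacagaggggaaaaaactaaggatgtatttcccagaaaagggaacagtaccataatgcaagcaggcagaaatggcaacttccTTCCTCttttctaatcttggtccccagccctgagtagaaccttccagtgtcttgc
Cd300a (chr11:114889891-114890040, plus strand): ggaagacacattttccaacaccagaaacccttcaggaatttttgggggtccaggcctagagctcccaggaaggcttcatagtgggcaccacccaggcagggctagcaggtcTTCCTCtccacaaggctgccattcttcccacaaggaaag
Siglece (chr7:43660162-43660311, minus strand): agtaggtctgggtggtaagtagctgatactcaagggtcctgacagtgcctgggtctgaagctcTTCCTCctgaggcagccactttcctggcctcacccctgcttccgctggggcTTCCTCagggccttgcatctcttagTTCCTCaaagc
Siglecf (chr7:43351191-43351340, plus strand): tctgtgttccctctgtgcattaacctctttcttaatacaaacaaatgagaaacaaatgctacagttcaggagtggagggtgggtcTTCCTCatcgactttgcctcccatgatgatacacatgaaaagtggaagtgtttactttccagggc
Clec2d (chr6:129180465-129180614, plus strand): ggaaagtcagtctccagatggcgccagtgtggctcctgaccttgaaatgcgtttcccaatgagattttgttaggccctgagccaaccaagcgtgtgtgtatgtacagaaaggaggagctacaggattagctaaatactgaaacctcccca
Spi1 itself stood at 87.4, 208 and 195 CPM in wild type and 83.6, 3.48 and 14.3 CPM in the knockout (edgeR log2 fold change -2.27, adjusted p 0.201). It is also on the list of pan-macrophage markers, and its part in the members' levels was not tested.

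Across the families, most members had lower mean levels in the knockout fat, the libraries of a genotype varied widely, and no member passed the test. Of 50 members tested with edgeR's quasi-likelihood test, 0 were called lower (background 0.882% of all 13829 genes) and 0 higher (background 1.74%) at a Benjamini-Hochberg adjusted p under 0.05. Before adjustment, 11 had a p under 0.05 and were lower (background 14.7%), and 1 was higher (background 16.3%). DESeq2 called 12 of the 50 to which it gave an adjusted p lower (background 9.74%) and 0 higher (background 9.92%). The log2 fold change, CD44 KO minus wild type, was negative in 44 of 50 members (background 47.8%), with a median of -1.61 against 0.03 over all genes. The members that passed the low-count filter are not all members, and their median describes them only. The 2 genotypes did not overlap in 24 members that were lower in the knockout (background 18.1%) and in 1 that was higher, Fcgrt (background 19.7%).

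CD44 KO replicate 1 stood apart from the other 2 knockout libraries for most myeloid receptors. In 24 of 50 members it lay at or above the lowest wild type library, against 8 for CD44 KO replicate 2 and 10 for replicate 3. CD44 KO replicate 2 was the lowest of the 6 libraries in 37 of 50 members. No share over all genes was taken for these counts of library order, so they describe the members only. Without CD44 KO replicate 1, edgeR called 22 of 51 members lower (background 9.65%) and 0 higher (background 7.13%), and the median was -2.77. Leaving out any 1 of the other 5 libraries left 0 called, with medians from -1.76 to -1.14. The summed FPKM of all members was 1517, 2685 and 2583 in wild type and 1520, 502 and 887 in the knockout.

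**Figure D1:**
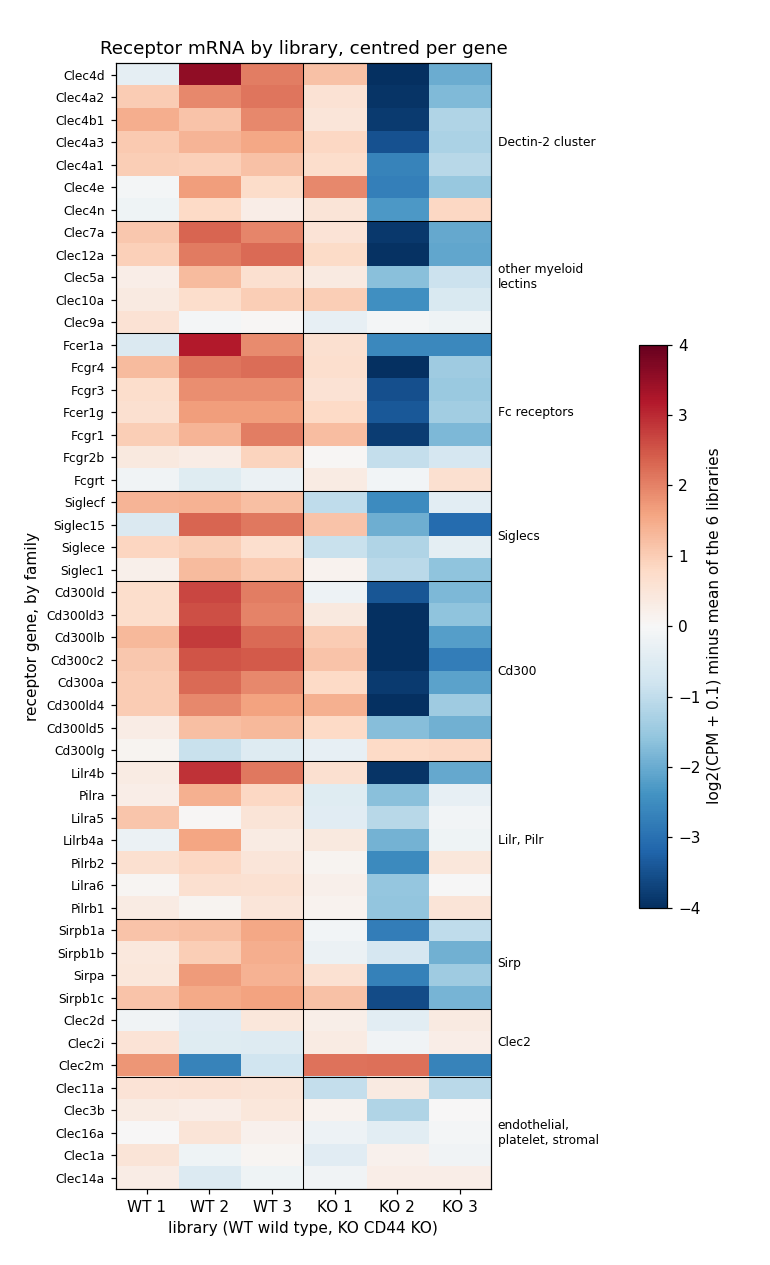
Heat map of the 50 tested receptor genes (rows, by family) in the 6 libraries (columns). Colour gives log2(CPM + 0.1) minus the gene's mean over the 6 libraries, on a scale that saturates at 4 in either direction. Most myeloid families are lowest in CD44 KO replicate 2. It was the lowest library in 37 of 50 genes, a count without a share over all genes beside it.

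**Figure D2:**
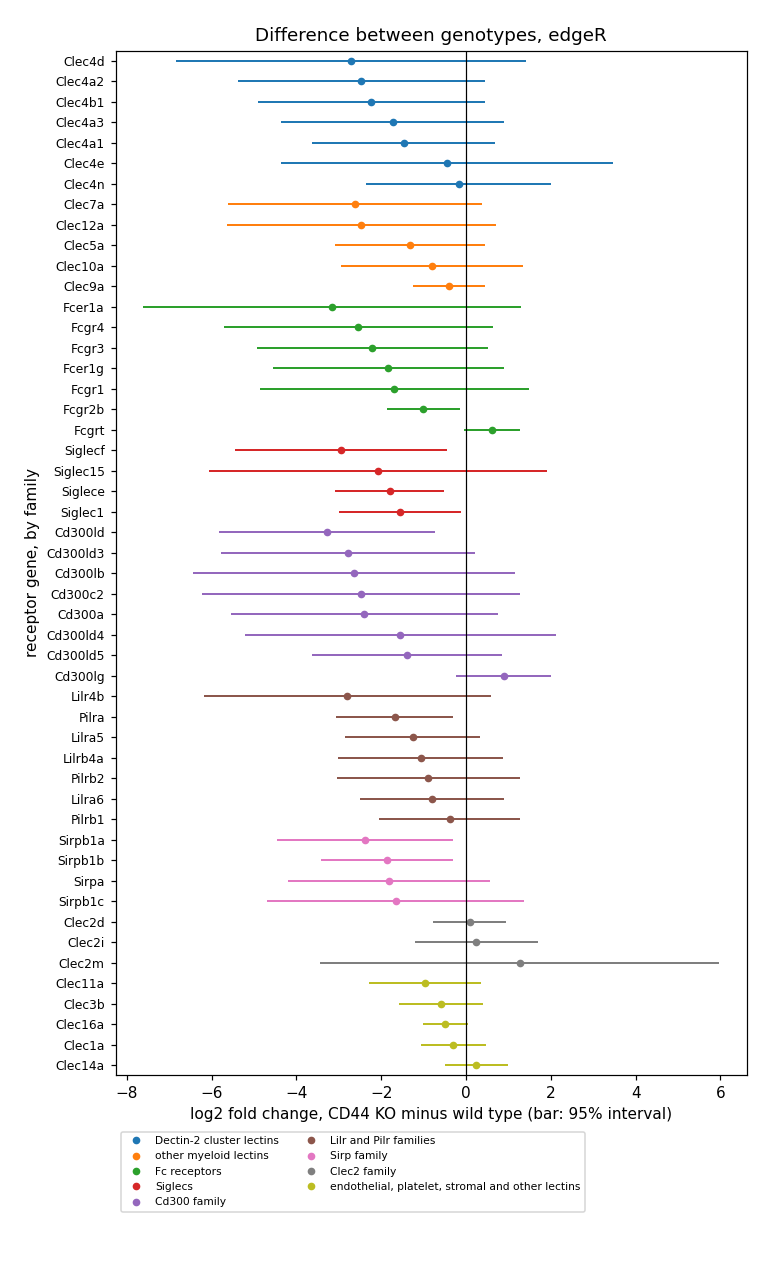
Log2 fold change (CD44 KO minus wild type, edgeR) of each tested receptor gene, with points coloured by family and bars for the 95% interval. Points lie left of 0 in 44 of 50 genes, and most of the bars cross 0.

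The Fc receptors for IgG were among the more abundant members, and none passed the test. Fcer1g (ENSMUSG00000058715, minus strand of chromosome 1, 171229572 to 171234365 in GRCm38) encodes the signalling chain shared by activating Fc receptors and several lectins, and it had the highest level of all members in wild type. Its FPKM was 171.53, 343.95 and 349.85 in wild type and 191.14, 9.42 and 41.23 in the knockout. CD44 KO replicate 1 lay above wild type replicate 1, so the genotypes overlapped, and the edgeR log2 fold change was -1.83 (SE 0.98, adjusted p 0.242). Fcgr3 (chromosome 1, 171051174 to 171064935), an activating low-affinity receptor, had FPKM of 137.35, 299.03 and 302.81 in wild type and 122.99, 6.67 and 29.37 in the knockout. The groups did not overlap, with CD44 KO replicate 1 close below wild type replicate 1 (edgeR log2 fold change -2.21, SE 0.97, adjusted p 0.178). Fcgr4 (chromosome 1, 171018920 to 171029761), an activating receptor for some mouse IgG subclasses, had FPKM of 12.78, 23.13 and 25.58 against 8.5, 0.09 and 1.9. All 3 knockout libraries were under all wild type libraries, by an edgeR log2 fold change of -2.54 (SE 1.14, adjusted p 0.184). Fcgr1, the high-affinity IgG receptor gene, had FPKM of 15.37, 19.12 and 31.6 against 16.42, 0.33 and 1.78. The first knockout library lay inside the lower end of the wild type range (edgeR log2 fold change -1.69, adjusted p 0.335).

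The inhibitory receptor gene Fcgr2b (chromosome 1, 170958617 to 170976547) had FPKM of 42.1, 38.4 and 61.24 in wild type and 34.37, 15.62 and 20.69 in the knockout. It was lower in all 3 knockout libraries, by a log2 fold change of -1.01 (SE 0.30, 95% interval -1.85 to -0.16, edgeR adjusted p 0.0991). Its range over the libraries was narrower than that of Fcgr3. The ratio of Fcgr3 to Fcgr2b FPKM was 3.26, 7.79 and 4.94 in wild type and 3.58, 0.427 and 1.42 in the knockout. The mean log2 ratio differed by -1.95, with a two-sided exact permutation p of 0.2, where 3 libraries against 3 can give no less than 0.1. This ratio was chosen after its values were seen, and it was 3.58 in CD44 KO replicate 1, inside the wild type range. Fcgr2b and Fcgr3 both had expected counts that were not whole in some libraries, so some of their reads were divided between genes by the authors' counting.

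Fcgrt was the 1 Fc receptor gene with a positive log2 fold change. It encodes the neonatal Fc receptor, which recycles IgG and albumin in many cell types. Its FPKM was 159.76, 126.03 and 150.11 in wild type and 223.01, 153.45 and 269 in the knockout. By CPM the genotypes did not overlap, while by FPKM CD44 KO replicate 2 lay inside the wild type range. Its edgeR log2 fold change was 0.60 (SE 0.23, adjusted p 0.137), with p from 0.0808 to 0.34 over the alternatives.

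Fcer1a, which encodes the IgE-binding chain of the high-affinity IgE receptor, was scarce, with FPKM of 0.31, 5.3 and 2.16 in wild type and 0.84, 0 and 0 in the knockout. Its 5, 98 and 40 counts against 14, 0 and 0 overlapped between the genotypes, and the edgeR adjusted p was 0.223 (log2 fold change -3.16). The mast cell protease genes ran in the same library order: Cpa3 stood at 2.48, 42.1 and 12.4 CPM in wild type and 5.46, 0.18 and 0.777 CPM in the knockout. Kit and Gata2, on the same list, did not run in that order. The 7 mast cell markers summed to 47.8 to 197 CPM in wild type and 39.8 to 56.9 CPM in the knockout, and none was at 0 in every library. Their part in the Fcer1a values was not tested. Fcer2a, the low-affinity IgE receptor gene of B cells, stayed under an FPKM of 0.5.

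**Figure D3:**
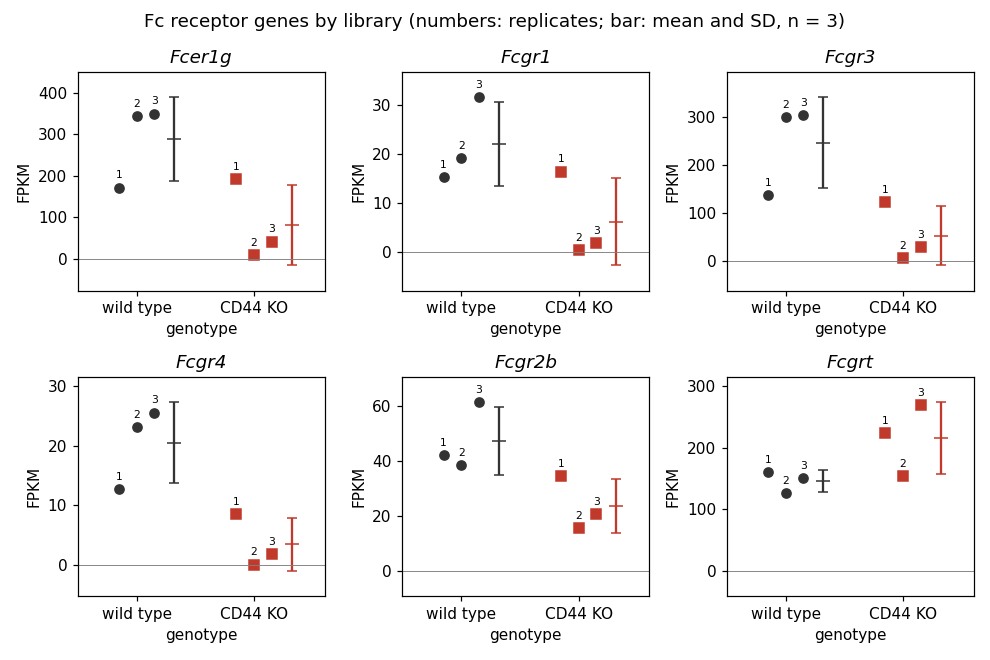
FPKM (vertical axes, linear) of 6 Fc receptor genes in each library, by genotype, with replicate numbers above the points and the mean with SD (n = 3) beside them. CD44 KO replicate 1 sits near wild type replicate 1 for Fcer1g, Fcgr1 and Fcgr3, and Fcgrt runs the other way.

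Genes of the Dectin-2 cluster on chromosome 6 were lower in level in CD44 KO replicate 2 than in any wild type library. All 7 tested genes had negative log2 fold changes (background 47.8%, median -1.73), and in 4 the genotypes did not overlap (background 18.1%). Clec4a2 (chromosome 6, 123106428 to 123143999), which encodes the inhibitory receptor DCIR, had FPKM of 57.91, 109.75 and 129.98 in wild type and 43.87, 1.5 and 7.85 in the knockout (edgeR log2 fold change -2.46, SE 1.04, adjusted p 0.167). Clec4b1, an activating partner that uses the Fcer1g chain, had 18.81, 14.54 and 25.64 against 9.35, 0.3 and 2.74. Every knockout library was below every wild type one in both genes. Clec4a3 also did not overlap (log2 fold change -1.73). Clec4a1 had an even level in wild type, 17.15, 16.43 and 19.84 FPKM, and 14.02, 1.19 and 3.88 in the knockout (edgeR log2 fold change -1.47, adjusted p 0.236).

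The activating members of the cluster that sense microbial glycolipids and mannans were mostly less abundant. Clec4d, which encodes the Mincle partner MCL, varied 14.3-fold within wild type, with FPKM of 4.67, 66.91 and 24.71, and stood at 13.04, 0.17 and 1.31 in the knockout. Its level in CD44 KO replicate 1 exceeded that in wild type replicate 1 (edgeR log2 fold change -2.71, SE 1.48, adjusted p 0.249). Clec4e, which encodes Mincle, reached at most 1.07 FPKM, in CD44 KO replicate 1, against 0.21, 0.84 and 0.44 in wild type and 0 and 0.11 in the other knockout libraries. Clec4n, which encodes Dectin-2, had FPKM of 1.84, 3.63 and 2.55 in wild type and 3.01, 0.32 and 3.65 in the knockout. Only CD44 KO replicate 2 was low among these 6 values, and the log2 fold change of -0.17 had a 95% interval from -2.33 to 1.99. The sign of the fold change of Clec4n and of Clec4e depended on single libraries.

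Clec7a and Clec12a were the more abundant of the other myeloid lectins besides Clec10a, and both had a wide gap between CD44 KO replicate 1 and the other knockout libraries. Clec7a (chromosome 6, 129461591 to 129472779) encodes Dectin-1, the receptor for fungal beta-glucan, which signals through Syk and CARD9. Its FPKM was 54.86, 134.14 and 103.99 in wild type and 37.12, 1.51 and 5.13 in the knockout. The genotypes did not overlap, with an edgeR log2 fold change of -2.62 (SE 1.07, adjusted p 0.157, range over the alternatives 0.0232 to 0.337). Clec12a, an inhibitory receptor for uric acid crystals, had FPKM of 41.09, 92.54 and 108.18 against 35.52, 1.21 and 4.86 (edgeR log2 fold change -2.47, adjusted p 0.193). Clec5a, which pairs with the Tyrobp adaptor, had a low level, 0.98, 1.62 and 1.47 FPKM against 1.21, 0.14 and 0.27.

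Clec10a encodes MGL1, a galactose-type lectin of macrophages and dendritic cells. Its FPKM was 69.51, 88.03 and 111.67 in wild type and 109.55, 9.03 and 34.8 in the knockout, so CD44 KO replicate 1 stood within the upper wild type range (edgeR log2 fold change -0.80, SE 0.77, adjusted p 0.495). Clec9a, which encodes the dead-cell receptor of cross-presenting dendritic cells, had FPKM of 2.43, 1.16 and 1.31 against 1.31, 1.11 and 1.09. The genotypes overlapped, with a log2 fold change of -0.40 (95% interval -1.23 to 0.44). Clec9a overlaps its neighbour Clec1b in the annotation, and how the authors' counting treated that overlap is not given. The 6 dendritic cell markers summed to 22.1 to 28.5 CPM in wild type and 25.0 to 44.5 CPM in the knockout. Zbtb46 had the highest level of these markers in every library, so it weighed most in the sum. Its log2 fold change was positive (0.89), as was that of Itgae (1.66). The other 4 were negative: Xcr1 (-1.11), Batf3 (-0.94), Ccr7 (-0.71) and Flt3 (-0.58). None of the markers was called, and their part in the Clec9a values was not tested.

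Siglece and Siglecf were even over the wild type libraries and low in all 3 knockout libraries, CD44 KO replicate 1 included. Both reached the FPKM minimum of 0.5 only in wild type, so they are described here through the group where they were high. Siglece (chromosome 7, 43651070 to 43660161), an inhibitory Siglec of neutrophils and macrophages, had FPKM of 1, 1.08 and 1.03 in wild type and 0.26, 0.22 and 0.38 in the knockout. These rest on 31, 37 and 31 counts against 8, 6 and 11. The lowest wild type value was 2.63-fold above the highest knockout value (edgeR log2 fold change -1.80, SE 0.46, adjusted p 0.076). Siglece was the member of lowest p, and limma on log2(FPKM + 0.1) called it (adjusted p 0.0467, log2 fold change -1.58). Among members, 12 had an adjusted p under 0.05 in the authors' deposited table, Siglece at 0.0214 and Cd300ld lowest at 0.000528. No share over all genes was taken for that table. The submitters' notes name DESeq2, which called 12 members lower here too (background 9.74%), so the 2 counts are not separate evidence. Siglecf (chromosome 7, 43351341 to 43359531), an inhibitory Siglec of eosinophils and some macrophages, had FPKM of 0.54, 0.55 and 0.52 against 0.08, 0 and 0.15, from 23, 26 and 23 counts against 3, 0 and 5. Its edgeR log2 fold change was -2.94 (SE 0.89, adjusted p 0.0996). Of the eosinophil markers, Epx was at 0 in 5 of 6 libraries and at 0.0647 CPM in CD44 KO replicate 3. The list of 4 summed to 1.18 to 7.77 CPM in wild type and 0.36 to 1.31 CPM in the knockout. That difference came from Ccr3, at 1.00, 6.03 and 7.15 CPM against 0.534, 0 and 0 CPM. Prg2 ran the other way, at 0.177, 0.323 and 0.574 CPM against 0.712, 0.360 and 0.842 CPM. The part of these markers in the Siglecf values was not tested.

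Siglec1 encodes sialoadhesin, the CD169 receptor of resident macrophages. Its FPKM was 6.94, 14.2 and 12.59 in wild type and 6.83, 2.6 and 1.94 in the knockout (edgeR log2 fold change -1.56, SE 0.51, 95% interval -2.98 to -0.14, adjusted p 0.111). CD44 KO replicate 1 was just below wild type replicate 1. Siglec15, known from osteoclasts, had counts of 8, 76 and 68 against 30, 2 and 0, which overlapped. Siglech, a marker of plasmacytoid dendritic cells, had FPKM of 0.54, 0.11 and 0.3 against 0.39, 0.2 and 0.31, with at most 16 counts in a library, and was not tested. Siglech too reached the FPKM minimum of 0.5 only in wild type.

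Low values in all 3 knockout libraries, with a gap of 1.5-fold or more between the lowest wild type and the highest knockout FPKM, were found in 8 of 50 tested members (background 3.39% of all 13829 genes). They were Siglecf, Siglece, Cd300ld, Sirpb1a, Pilra, Sirpb1b, Clec4b1 and Fcgr4, a group formed after the values were seen, and it gets no test. Siglecf and Siglece reached an FPKM of 0.5 only in wild type. Pilra, an inhibitory paired receptor, had FPKM of 1.91, 4.84 and 2.99 against 1.06, 0.41 and 1.17 (edgeR log2 fold change -1.68, SE 0.49, adjusted p 0.0927). All 3 knockout values lay under the wild type values.

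**Figure D4:**
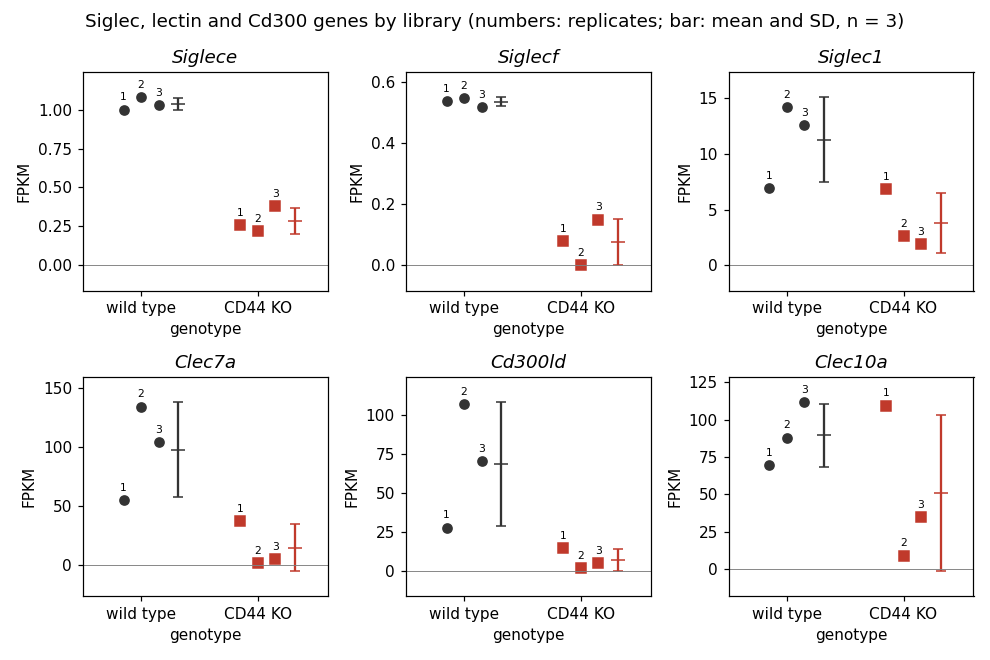
FPKM (vertical axes, linear) of 3 Siglec genes, Clec7a, Cd300ld and Clec10a in each library, by genotype, with replicate numbers above the points and the mean with SD (n = 3) beside them. Siglece and Siglecf are tight in wild type (1 to 1.08 and 0.52 to 0.55) and low in every knockout library, while Clec10a in CD44 KO replicate 1 is within the wild type range.

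Cd300 genes lie in a cluster on chromosome 11 and encode activating and inhibitory receptors for lipids on dying cells. Cd300ld (chromosome 11, 114982274 to 114989922), an activating member, had FPKM of 27.65, 107 and 70.07 in wild type and 14.7, 1.45 and 4.79 in the knockout. It was 9.68-fold lower by the edgeR estimate (log2 fold change -3.28, SE 0.91, 95% interval -5.79 to -0.76, adjusted p 0.0882), the lowest log2 fold change of the 50 tested members. Cd300ld3 had FPKM of 44.2, 160 and 107.07 against 35.22, 1.39 and 8.45 (edgeR log2 fold change -2.78, adjusted p 0.142). The inhibitory receptor gene Cd300a had FPKM of 23.87, 55.96 and 44.56 against 20.19, 0.75 and 2.58 (edgeR log2 fold change -2.40, adjusted p 0.198). In all of these the groups did not overlap, and CD44 KO replicate 1 was the highest knockout library. Cd300lb, Cd300c2, Cd300ld5 and Cd300ld4 had log2 fold changes of -2.65, -2.48, -1.39 and -1.55, and Cd300ld2, with an FPKM of at most 0.53, was not tested. Cd300lf, an inhibitory member for which phosphatidylserine is a ligand, reached an FPKM of 0.45 in CD44 KO replicate 3 and at most 0.09 elsewhere. Of the 9 described Cd300 genes 6 had expected counts that were not whole, so their split is uncertain.

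Cd300lg, an endothelial member that lies apart from the cluster on chromosome 11, had FPKM of 122.26, 59.92 and 78.12 in wild type and 88.57, 178.02 and 192.27 in the knockout. CD44 KO replicate 1 lay inside the wild type range and the other knockout libraries above it (edgeR log2 fold change 0.89, SE 0.40, adjusted p 0.181). The 7 endothelial markers summed to 634 to 1305 CPM in wild type and 794 to 1527 CPM in the knockout. All 7 markers had positive log2 fold changes, as had 7219 of all 13829 tested genes. Each of the 7 overlapped between the genotypes and 0 were called. The part of these markers in the Cd300lg values was not tested. The endothelial lectin genes Clec14a and Clec1a had log2 fold changes of 0.24 (95% interval -0.48 to 0.96) and -0.30 (95% interval -1.03 to 0.44). Clec14a had FPKM of 4.61, 2.52 and 3.31 against 3.33, 4.12 and 4.42, which overlapped.

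Lilr genes encode immunoglobulin-like paired receptors, and all 7 members of the Lilr and Pilr families had negative log2 fold changes (background 47.8%, median -1.07). Lilr4b had FPKM of 23.49, 130.73 and 77.09 in wild type and 28.89, 1.2 and 5.04 in the knockout (edgeR log2 fold change -2.80, SE 1.21, adjusted p 0.174). Lilrb4a, the neighbouring inhibitory receptor gene on chromosome 10, had 6.44, 29 and 11.69 against 8.02, 1.41 and 6.21 (edgeR log2 fold change -1.07, adjusted p 0.319). Both were highest in wild type replicate 2, overlapped between the genotypes and had counts that were not whole. Lilra6 and Pilrb2 had log2 fold changes of -0.80 and -0.89. Lilra5, an activating member, had 0.85, 0.38 and 0.56 FPKM against 0.26, 0.13 and 0.34. Lilra5 too reached the FPKM minimum of 0.5 only in wild type, so it is described through the group where it was high. Pilrb1, an activating partner of Pilra, was even in wild type at 2.38, 2.34 and 2.35 FPKM and stood at 2.06, 0.47 and 1.98 in the knockout.

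Sirpa (chromosome 2, 129592835 to 129632228) encodes the receptor through which CD47 restrains phagocytosis. Its FPKM was 107.86, 262.64 and 212.99 in wild type and 123.97, 11.53 and 29.52 in the knockout (edgeR log2 fold change -1.82, SE 0.85, adjusted p 0.196). Here too CD44 KO replicate 1 lay above wild type replicate 1. The activating Sirpb1 genes on chromosome 3, which use the Tyrobp adaptor, were less abundant. Sirpb1a had FPKM of 2.21, 2.58 and 3.46 against 1.32, 0.19 and 0.44 (edgeR log2 fold change -2.38, adjusted p 0.102). Sirpb1b had 2.06, 3.07 and 4.34 against 1.3, 0.87 and 0.36 (edgeR log2 fold change -1.87, adjusted p 0.0948). Neither overlapped, while Sirpb1c did (log2 fold change -1.66), and counts of the 3 Sirpb1 genes were not whole.

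The lectins of endothelium, stroma and other cells had a median log2 fold change of -0.48, and the Clec2 genes one of 0.24. Clec3b, which encodes the plasminogen-binding protein tetranectin, had FPKM of 123.8, 114.92 and 135.32 in wild type and 107.19, 38.81 and 97.48 in the knockout (edgeR log2 fold change -0.59, adjusted p 0.28). Clec11a, which encodes a growth factor for bone-forming cells, was even in wild type at 1.57, 1.56 and 1.52 FPKM and stood at 0.52, 1.26 and 0.48 in the knockout (edgeR log2 fold change -0.96, adjusted p 0.206). Every knockout library of both genes was under every wild type library. The 6 fibroblast and progenitor markers summed to 1378 to 1663 CPM in wild type and 728 to 1320 CPM in the knockout, 1 of them called lower, Pi16, and their part in these values was not tested. Clec16a, a regulator of mitophagy, had 9.25, 12.56 and 10.22 FPKM against 7.02, 5.1 and 6.46 (edgeR log2 fold change -0.48, adjusted p 0.134).

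Clec2d encodes the ligand of an inhibitory NK cell receptor. Its FPKM was 50.33, 39.98 and 76.44 in wild type and 64.85, 37.81 and 69 in the knockout. The ranges coincided, with a log2 fold change of 0.08 and a 95% interval from -0.76 to 0.93. Clec2i had FPKM of 0.88, 0.53 and 0.34 against 0.63, 0.36 and 0.69, which overlapped. Clec2m had 35, 0 and 5 counts against 46, 47 and 0, so each genotype held a library at 0. The platelet receptor gene Clec1b had at most 14 counts and was not tested.

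Relative to macrophage markers, the members differed in both directions. The mean log2 CPM of the 15 markers was 7.98 in wild type and 5.49 in the knockout. The markers themselves did not fall alike. Their edgeR log2 fold changes ran from -2.64 (Cybb) and -2.57 (Cd68) to -0.47 (Cd163) and -0.02 (Mertk). A member can thus depart from the marker mean and still move as some of the markers did. Each member's log2 CPM minus the marker mean was compared, without a test. The difference between the genotypes was below -1 in 8 of 50 members, within 1 of 0 in 21 and above 1 in 21. Sirpa and Fcer1g kept nearly the same distance from the markers, with differences of 0.15 (pooled SD 0.16) and -0.15 (SD 0.25). Clec7a went from -1.06, -0.78 and -0.92 in wild type to -1.49, -2.33 and -2.11 in the knockout, a difference of -1.06 (SD 0.32) without overlap. Cd300lb, Cd300c2, Fcgr4 and Cd300ld had differences of -1.73, -1.54, -1.23 and -1.10, which without CD44 KO replicate 2 were -1.07, -1.20, -0.60 and -1.16. Clec10a went from -0.73, -1.35 and -0.83 to -0.03, 0.12 and 0.35, a difference of 1.12 (SD 0.27) without overlap. For Clec10a the difference ran from 0.93 to 1.24 when any 1 library was left out. Clec4n, at 1.89 (SD 0.83), also did not overlap. Fcgr2b stood at 1.46 (SD 1.00), with overlap, and at 0.80 without CD44 KO replicate 2. Fcgrt stood at 3.08 (SD 1.24) without overlap, and at 2.41 without CD44 KO replicate 2. Cd300lg stood at 3.36 (SD 1.84) with overlap, at 2.31 without CD44 KO replicate 2 and at 4.66 without CD44 KO replicate 1. Siglece and Siglecf, at 0.85 (SD 1.25) and -0.04 (SD 1.05), overlapped. A prior count enters each log2 CPM, which pulls the genotype difference in a scarce member's own log2 CPM toward 0. Because the marker mean was lower in the knockout, this moves the relative difference of scarce lower members, such as Siglece and Siglecf, upward. On this scale the genotypes did not overlap in 9 members that were lower in the knockout (background 0.528% of all genes). They did not overlap in 6 that were higher (background 54.3%). By CPM alone these backgrounds were 18.1% and 19.7%. Subtracting a marker mean that was lower in the knockout moves a gene that does not follow the markers upward. The backgrounds carry that shift, so these counts cannot show whether members fell or rose beyond the markers.

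**Figure D5:**
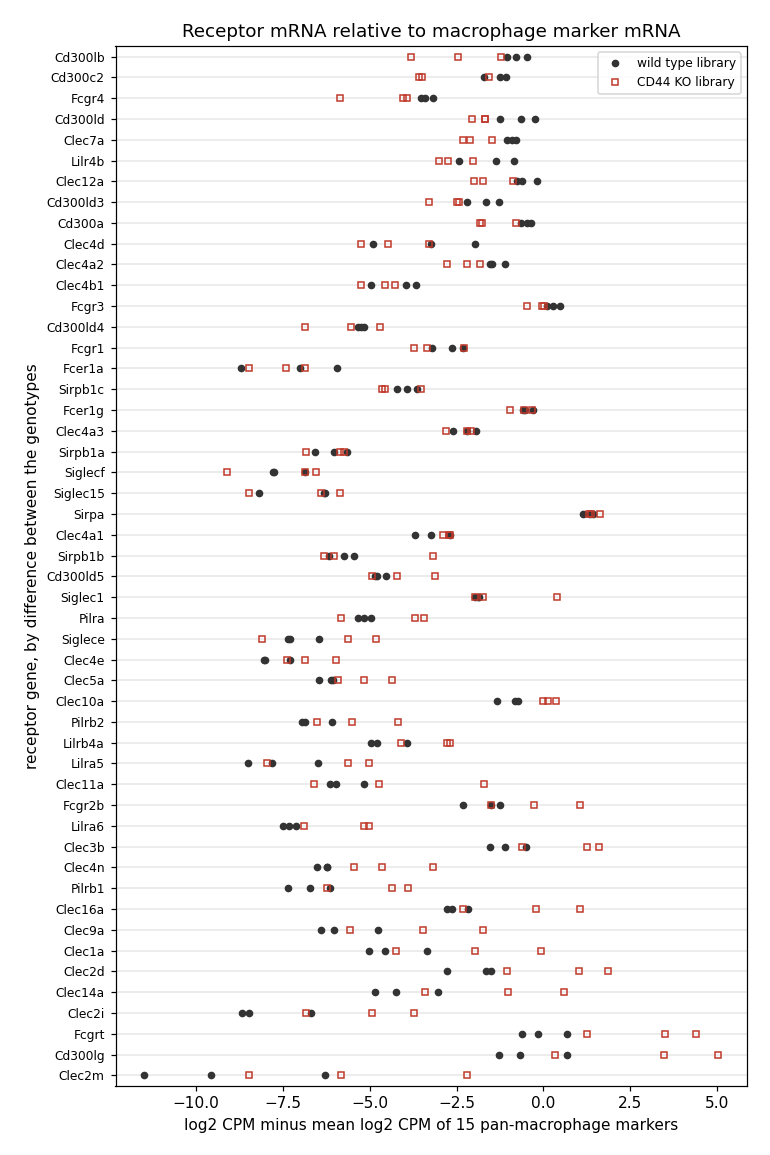
Log2 CPM of each tested receptor gene minus the mean log2 CPM of 15 pan-macrophage markers (horizontal axis), in each wild type (filled) and CD44 KO (open) library, ordered by the difference between genotypes. Sirpa and Fcer1g overlap closely, Every knockout point lies left of every wild type point for Clec7a and Cd300ld and right of them for Clec10a and Fcgrt, while Cd300lg overlaps.

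Genes that carry the signal of these receptors also had mostly negative log2 fold changes. Of 22 adaptor and signalling genes, edgeR called 0 lower and 0 higher, with 8 lower (background 14.7%) and 1 higher (background 16.3%) before adjustment (p under 0.05). DESeq2 called 4 lower (background 9.74%) and 1 higher (background 9.92%). Their median log2 fold change was -1.26, and 18 were negative (background 47.8%). Tyrobp, the DAP12 adaptor, had FPKM of 325.88, 650.97 and 749.1 in wild type and 330.2, 10.39 and 45.96 in the knockout (edgeR log2 fold change -2.16, adjusted p 0.24). The kinase gene Syk had 27.27, 72.03 and 44.91 against 20.74, 1.99 and 5.24 (edgeR log2 fold change -2.37, adjusted p 0.13), and the Src-family kinase gene Lyn 30.29, 42.68 and 37.67 against 23.3, 9.51 and 15.25 (edgeR log2 fold change -1.17, adjusted p 0.0858). Neither Syk nor Lyn overlapped between the genotypes, while Tyrobp in CD44 KO replicate 1 lay just above wild type replicate 1. Sh2b2, an adaptor of insulin receptor and immune receptor signalling, stood at 37.1, 27.2 and 24.6 CPM in wild type and 58.6, 80.2 and 56.2 CPM in the knockout (edgeR log2 fold change 1.13, adjusted p 0.0543). Its genotypes did not overlap by CPM, but they did by FPKM, at 23.32, 9.58 and 8.95 against 21.08, 26.75 and 20.04.

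Protein ligands of the receptors showed no single direction. Of 8 ligand genes tested, 0 were called in either direction by edgeR, 3 were lower (background 14.7%) and 1 higher (background 16.3%) before adjustment (p under 0.05), and DESeq2 called 1 lower (background 9.74%) and 1 higher (background 9.92%). Cd47, the ligand of Sirpa, had FPKM of 80.76, 90.39 and 103.82 in wild type and 63.79, 38.43 and 45.56 in the knockout. By CPM its fall was smaller, at 165, 194 and 187 against 145, 130 and 164 (edgeR log2 fold change -0.32, adjusted p 0.219). Pianp, whose product binds the Pilr receptors, had FPKM of 6.05, 26.63 and 17.63 against 4.55, 0.22 and 1.16 (edgeR log2 fold change -3.11, adjusted p 0.116). Cd24a, which encodes a ligand of Siglecs, had 6.53, 3.66 and 4.46 against 11.83, 42.25 and 8.62, highest in CD44 KO replicate 2 (edgeR log2 fold change 2.18, adjusted p 0.105). None of these 3 genes overlapped between the genotypes.

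Lectin and paired receptors with other names gave the only call among the receptor, signalling and ligand genes. Of 20 tested, edgeR called 1 lower (background 0.882%) and 0 higher (background 1.74%), with a median log2 fold change of -0.87. The called gene was Cd72, an inhibitory lectin-like receptor of B cells and some myeloid cells. Its FPKM was 13.92, 45.78 and 38.63 in wild type and 3.82, 1.02 and 0.97 in the knockout, without overlap (edgeR log2 fold change -3.81, adjusted p 0.0453). The call was lost without wild type replicate 2 or 3 and without CD44 KO replicate 2 or 3. The 5 B cell markers summed to 2.96 to 6.01 CPM in wild type and up to 9.26 CPM in the knockout. Colec12, a scavenger collectin, had FPKM of 18.1, 25.53 and 23.4 against 11.1, 5.24 and 6.51 (edgeR log2 fold change -1.57, adjusted p 0.0509). Mrc1, the macrophage mannose receptor gene, had 40.12, 72.49 and 63.4 against 27.24, 4.35 and 10.42 (edgeR log2 fold change -2.05, adjusted p 0.105). Trem2, a lipid receptor of macrophages in obese fat, had 165.59, 462.26 and 440.48 against 157.85, 2.13 and 6.93 (edgeR log2 fold change -2.67, adjusted p 0.257). The library CD44 KO replicate 1 was close to wild type replicate 1 for Trem2 and far below it for Cd72.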

How the data were processed

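RNA-seq of 6 libraries was analysed. The authors deposited expected counts per gene, a table of the same values rounded to whole counts, FPKM, and their own log2 fold changes and p-values. Per the submitters' processing notes the tools were HISAT2, StringTie 1.3.1, RSEM and DESeq2. For build, annotation and strandedness, the sources used here give nothing. Between 7.57% and 8.3% of values were not whole. All 70 members matched GENCODE gene IDs on GRCm38, the source of the coordinates.

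Expected counts were rounded, filtered with filterByExpr, scaled by TMM and tested with edgeR 4.0.16 (quasi-likelihood, robust; R 4.3.3), with Benjamini-Hochberg adjustment over 13829 genes. CPM used TMM. The 95% intervals are the edgeR estimate plus or minus its SE times the t quantile on 4 degrees of freedom. They are wider than the edgeR test implies, and 8 members have an interval that leaves out 0, against 12 with an unadjusted p under 0.05. DESeq2 1.42.0 and limma 3.58.1 (on log2 FPKM plus 0.1 or 1), other scalings, no low-count filter, no robust estimation, a replicate block and leaving out each library were the alternatives. The scripts were tested on simulated data with the same spread for every gene and no shift of whole libraries. These libraries vary more than that, so the test does not gauge the power here. The members, role groups and gene lists were chosen with earlier results of these data known. Values in every library were given for the 3 members of lowest p and the 1 of highest mean FPKM in each role group, and for 30 members fixed by name.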

Additional observations from a re-analysis of the deposited data

How the results depend on the processing

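Receptor genes called lower numbered 0 with edgeR, 12 with DESeq2, 1 with limma on either pseudocount, 0 to 22 when 1 library was left out (22 without CD44 KO replicate 1) and 0 without members whose counts were not whole, an alternative chosen after seeing the data, as was the Fcgr3 to Fcgr2b ratio with each library left out (mean log2 difference -2.69 to -1.15). No alternative called a receptor gene higher. The median log2 fold change ran from -2.77 to -1.14 with 1 library left out. Over all genes, 122 were called lower, against 1459 with DESeq2, 206 and 203 with limma, 0 with the replicate block and 0 to 1363 with 1 library left out. The 240 called higher became 145 with no low-count filter, 1487 with DESeq2, 0 with the replicate block and 0 to 1007 with 1 library left out. Adaptor genes called lower numbered 4 with DESeq2 and 0 to 12 with 1 library left out, and those called higher 1 and 0 to 1. Ligand genes called numbered 1 lower and 1 higher with DESeq2, and 0 to 1 lower with 1 library left out. Of the related receptors, 1 was called, against 0 with no low-count filter, 5 with DESeq2, 2 with limma on either pseudocount, 2 with no robust estimation, 0 with the replicate block and 0 to 7 with 1 library left out. Sign turned in 5 of the tested receptor genes. Pilrb1 went from -0.38 to 0.04 without CD44 KO replicate 2. With 1 library left out, the log2 fold change of Clec2d ran from -0.10 to 0.37 (-0.07 without CD44 KO replicate 3), that of Clec4e from -4.07 to 0.18 (0.13 and 0.05 without CD44 KO replicates 2 and 3) and that of Clec4n from -0.68 to 0.34 (0.12 without wild type replicate 2). That of Clec2i was -0.011 with limma at a pseudocount of 0.1 and -0.014 at 1. The cause of these shifts was not tested. Of 546 comparisons of a named receptor gene with an alternative, 506 kept direction and side of the threshold, 31 passed it only in the alternative and 9, in 4 genes, turned sign. Deviations of same-numbered libraries correlated at -0.32, -0.22 and -0.02. These correlations cannot settle whether the numbers pair the libraries, which the labels do not say. The replicate block called 0 receptor genes.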
